A study of Homo sapiens with 6 samples.

Results

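The TRAIL and FAS death receptor pathway was followed across frankincense-treated and vehicle-treated 12Z cells through 10 genes, out of 60616 gene identifiers in the tables. The genes were chosen by name and role: the ligand TNFSF10, the receptors TNFRSF10A, TNFRSF10B and FAS, the decoy receptors TNFRSF10C and TNFRSF10D, the adaptor FADD, the initiator caspases CASP8 and CASP10, and the inhibitor CFLAR. All 10 matched a row of the tables, and 9 passed the filter on low counts that left 16719 genes for testing. TNFRSF10C did not pass.

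TNFSF10 encodes TRAIL, a membrane ligand that binds receptors with an intracellular death domain and can trigger apoptosis. The engaged receptor recruits the adaptor FADD, which gathers procaspase-8 and procaspase-10 so that they activate each other, while the caspase-like protein c-FLIP, encoded by CFLAR, competes for the same place. FAS works in the same way for its own ligand. The decoy receptors bind TRAIL without passing on a full death signal. In epithelial cells the transcription factor CHOP, which stress of the endoplasmic reticulum induces, is known to act on TNFRSF10B, and interferons are known to act on TNFSF10 and CASP8.

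The series sequenced RNA of 12Z, an immortalized wild-type human endometriotic cell line kept in medium with 10% charcoal-stripped serum. The 3 frankincense libraries came from cells given 70 ug/mL of frankincense extract in DMSO for 12 h. The 3 vehicle libraries came from cells given DMSO, for which the labels give no exposure time. All samples come from the same cell line. Nothing in the labels says that the replicates were grown separately, and the p-values therefore speak of variation among these 6 libraries, possibly only technical. Because the samples are bulk RNA, fewer cells with a transcript and less of it per cell cannot be told apart.

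The libraries held 22615150 to 27615196 expected counts, and 3 counts in a library corresponded to 0.109 to 0.133 CPM (counts scaled to library size). This floor takes account of counting error alone. Frankincense replicate 3 stood apart from the other treated libraries: the chi-square per degree of freedom of its counts was 13.98 against frankincense replicate 1 and 12.13 against frankincense replicate 2, compared with 4.15 between those libraries and 3.86 to 4.44 among vehicle libraries. Member changes without it are given in the text or plotted. Of the epithelial and stromal markers, 5 of 6 and 6 of 6 had a mean of 1 TPM or more (RSEM's level scaled to transcript length and library). In vehicle libraries KRT8, KRT18 and KRT19 averaged 771, 661 and 150 TPM. KRT7 averaged only 5.84 TPM there, EPCAM 1.12 TPM and the epithelial cadherin CDH1 0.13 TPM. Epithelial and stromal markers moved with the treatment. The 6 stromal markers were all called lower in edgeR (median log2 change of -1.47), from -0.30 for VIM to -1.98 for LUM, and summed to 2805 to 2944 TPM in vehicle and 2216 to 2259 TPM in treated libraries. Of the 5 epithelial markers tested, KRT8, KRT18 and KRT19 were called lower and KRT7 and EPCAM higher, and all 6 summed to 1574 to 1605 TPM and 1361 to 1419 TPM. The 6 markers of T or NK cells summed to 0.40 to 0.98 TPM in vehicle and 0.34 to 0.81 TPM in treated libraries, with CD3E, CD3D and CD2 at 0, and the 6 endothelial markers summed to at most 0.48 TPM. The 6 myeloid markers summed to 31.8 to 34.3 TPM and 36.2 to 65.0 TPM, mostly from the lysosomal gene CD68. LYZ, CSF1R and ITGAM were below 0.5 TPM throughout. CD68 and FCER1G were not called (edgeR adjusted p of 0.0794 and 0.759). CD14 was called lower, from a mean of 2.53 to 0.41 TPM (log2 fold change of -2.96 ± 0.28, edgeR adjusted p = 3.9e-07). The part of these markers in the results was not tested.

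RefSeq promoter windows, which reach from 250 bases before to 50 bases after an annotated start, matched 5 of the 10 genes with 12 windows in all. TNFSF10, with 1 window, and CASP8, with 3, are shown because 1 window of each holds the letters of an interferon response element (TTTC, any 2 bases, TTTC). The RNA of TNFSF10 fell the most of all members, while that of CASP8 did not pass the test. Both strands were searched, and the matches, in capitals, read in the direction of the gene.
TNFSF10, chr3:172523431-172523680, minus strand, the 250 bases before the start: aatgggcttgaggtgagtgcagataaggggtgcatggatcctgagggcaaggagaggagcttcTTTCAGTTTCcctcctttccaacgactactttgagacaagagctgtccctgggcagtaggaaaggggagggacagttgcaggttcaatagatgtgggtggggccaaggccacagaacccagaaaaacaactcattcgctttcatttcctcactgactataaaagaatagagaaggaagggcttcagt
CASP8, chr2:201233363-201233472, plus strand, from base -100 to base 10 around the start: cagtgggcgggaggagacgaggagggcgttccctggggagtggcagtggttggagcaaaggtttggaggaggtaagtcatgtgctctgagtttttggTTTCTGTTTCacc
The match begins at base -187 in TNFSF10 and at base -3 in CASP8. These letters were in 2 of the 12 windows, against 1255 of 35116 promoter windows of the same length (3.57%). A match describes the sequence and does not mark a used site. The GC box GGGCGG was found in 7 of the 12 windows (CASP8, CFLAR, FADD and FAS), against 45.0% of all windows, and the AP-1 letters TGANTCA in 5 of 12 (the same genes), against 7.71%. Windows of the same gene can overlap, as in FAS, where the same GC box was counted in more than 1 window. The 12 windows are therefore not independent. The FOXO letters GTAAACA and the kappaB letters (GGGA, any base, TT, any base, CC) were in 0 of the 12 windows, against 3.42% and 1.40% of all windows, which says only that these letters are not in these windows.

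Most of the members lie in gene clusters. On GRCh38 (GENCODE 29), TNFRSF10B (chromosome 8, 23020133 to 23069179), TNFRSF10C (23102590 to 23117437), TNFRSF10D (23135588 to 23164030) and TNFRSF10A (23190452 to 23225126) are neighbours. CFLAR (chromosome 2, 201116104 to 201176687), CASP10 (201182881 to 201229406) and CASP8 (201233443 to 201287711) form another cluster, all on the plus strand. TNFSF10 is on chromosome 3 (172505508 to 172523507), FAS on chromosome 10 (88990582 to 89015785) and FADD on chromosome 11 (70203163 to 70207390).

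Frankincense extract was accompanied by less ligand RNA, more RNA of both signalling TRAIL receptors, and less RNA of the decoy TNFRSF10D, of CASP10 and of CFLAR. TNFSF10 fell 5.31-fold, TNFRSF10A rose 1.73-fold and TNFRSF10B rose 1.48-fold. TNFRSF10D, CASP10 and CFLAR fell 1.60-fold, 1.63-fold and 1.44-fold, and FADD rose 1.17-fold, close to the threshold. FAS and CASP8 did not pass. Of the 9 tested members 3 were called higher and 4 lower at adjusted p under 0.05 (edgeR quasi-likelihood test, Benjamini-Hochberg over 16719 genes), where 62.9% of all tested genes were called, 31.9% higher and 31.0% lower. The median absolute log2 change of the 9 was 0.56, and that of all tested genes 0.37. A call by itself was thus common in this comparison. CPM values of the groups did not overlap for 6 of the 9, against 67.5% of tested genes, and TPM values for 8 of the 9, against 65.2%. A rise of at least 1 on the log2 scale was called for 0 of the 9 and for 5.14% of tested genes.

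**Figure D1:**
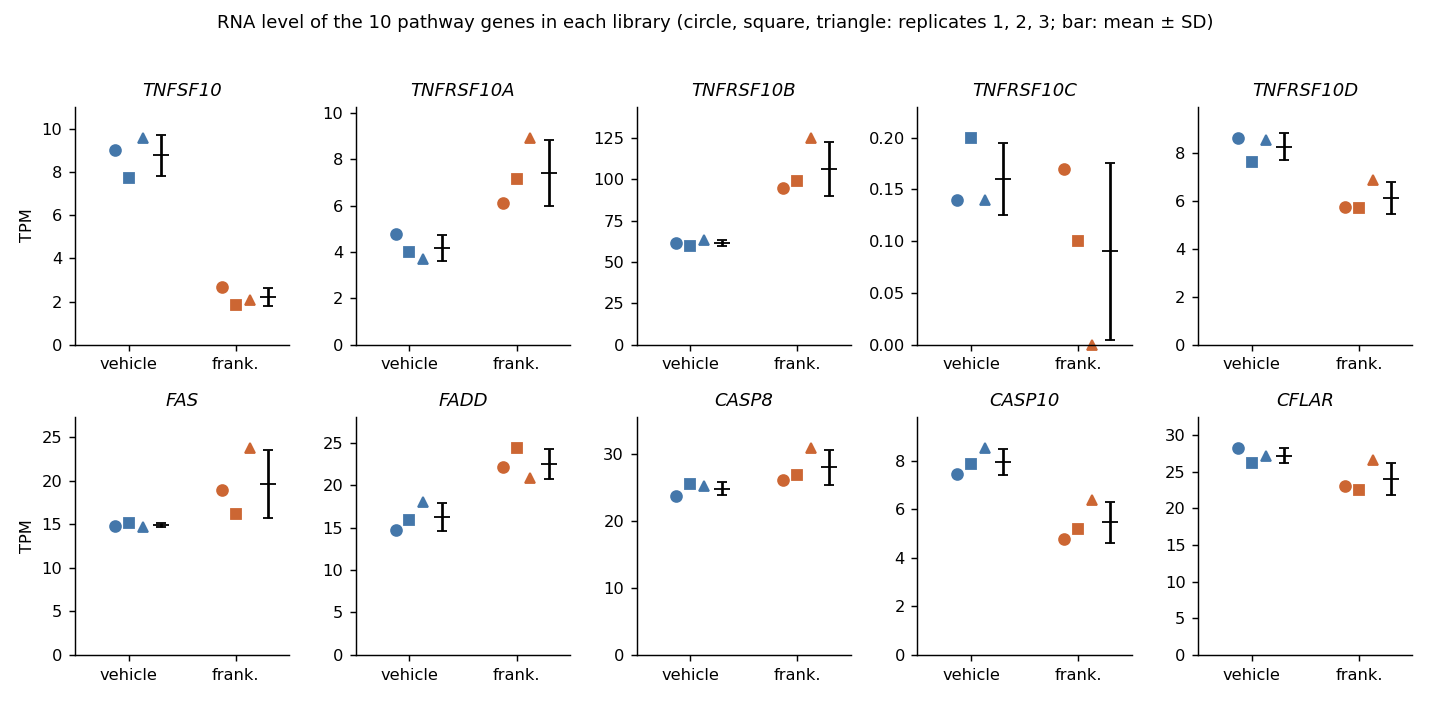
Level of each of the 10 genes in TPM (vertical axes, each from 0) in the 3 vehicle libraries (blue) and the 3 frankincense libraries (orange); circles, squares and triangles are replicates 1, 2 and 3, and the bar is the mean with its SD. TNFSF10 lies between 7.72 and 9.61 TPM in vehicle and between 1.86 and 2.66 TPM in treated libraries, and TNFRSF10C stays at or under 0.20 TPM everywhere.

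TNFSF10, the ligand, was at 11.4, 9.90 and 11.5 CPM in vehicle replicates 1, 2 and 3 and at 2.04, 1.999 and 2.13 CPM in the treated ones. Every treated library was below every vehicle library, and the treated libraries lay close together. The log2 fold change was -2.41 ± 0.12 (SE; edgeR adjusted p = 6.3e-10). It rests on 253, 265 and 295 expected counts against 52, 48 and 52. Falls of at least 1 on the log2 scale were called for 7.11% of tested genes, and 107 called genes fell further than TNFSF10. On the TPM scale the ligand went from 8.78 ± 0.97 to 2.19 ± 0.42 (SD, n = 3), a level that in treated libraries was above that of TNFRSF10C alone. Without frankincense replicate 3 its log2 fold change was -2.42.

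TNFRSF10B, which encodes the signalling receptor DR5, was the most abundant member in both groups. Its CPM was 158.5, 157.1 and 164.9 in vehicle libraries and 219.1, 227.2 and 263.1 in treated libraries. The groups did not overlap, and the highest value belonged to frankincense replicate 3. The log2 fold change was 0.56 ± 0.068 (edgeR adjusted p = 4.7e-06) and 0.49 without frankincense replicate 3. In TPM it went from 61.5 ± 1.77 to 106 ± 16.5 (SD, n = 3).

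TNFRSF10A, which encodes the other signalling receptor, DR4, had a much lower level per length, 4.16 ± 0.56 TPM in vehicle and 7.41 ± 1.43 TPM in treated libraries. It was at 7.18, 7.84 and 7.73 CPM in vehicle and 11.4, 13.2 and 14.9 CPM in treated libraries, again without overlap. The log2 fold change was 0.79 ± 0.11 (edgeR adjusted p = 1.4e-05) and 0.70 without frankincense replicate 3. Its counts were fractional in all 6 libraries, which means that RSEM divided reads between it and other transcripts, and 224 and 266 of its 2951 exonic bases are shared with TNFRSF10A-AS1 and AC100861.1 on the other strand. Strand is not stated to have been kept, so those reads cannot be assigned. They averaged 1.01 and 2.04 TPM in vehicle and 1.32 and 2.15 TPM in treated libraries, and were not called (edgeR adjusted p of 0.672 and 0.949).

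The decoy receptors were lower or near the limit of counting. TNFRSF10D, which encodes DcR2 with a truncated death domain, was at 24.3, 21.99 and 23.7 CPM in vehicle and 14.2, 14.0 and 15.4 CPM in treated libraries. All treated values were below all vehicle values, and the log2 fold change was -0.68 ± 0.075 (edgeR adjusted p = 1.9e-06). TNFRSF10C, which encodes the anchored decoy DcR1, had 10.16 expected counts over the vehicle libraries and 4.37 over the treated ones. That is too few to show a difference at this depth. In a fit with no filter its log2 fold change was -1.22 ± 1.002 (adjusted p = 0.387), and its exons overlap those of AC107959.4 on the same strand.

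The balance between receptor and decoy was compared within each library, where scaling between libraries has no part. The TPM ratio of TNFRSF10B to TNFRSF10D was 7.09, 7.84 and 7.45 in vehicle libraries and 16.5, 17.3 and 18.3 in treated libraries. The ranges were apart, and the mean log2 ratio was 1.22 higher after the extract (exact permutation test, two-sided, p = 0.1, the smallest that 3 against 3 libraries allow). In TPM TNFRSF10B was higher and TNFRSF10D lower, each without overlap between groups. The separation of the ratio and its p follow from these single-gene changes and add no further support. Both decoys together made up 11.7%, 10.9% and 11.4% of the TPM of the 4 TRAIL receptors in vehicle libraries and 5.53%, 5.19% and 4.86% in treated ones, a share computed after the values were seen and given as a description.

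**Figure D2:**
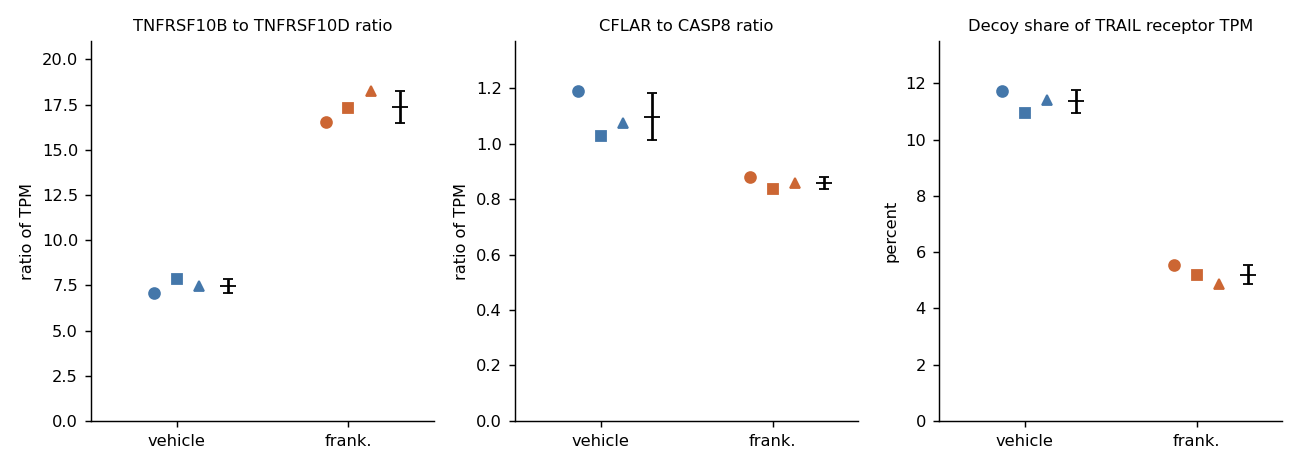
Within-library balances in vehicle (blue) and frankincense (orange) libraries: the ratio of TNFRSF10B to TNFRSF10D and of CFLAR to CASP8 in TPM, and the share of TRAIL receptor TPM held by both decoys, in percent; all vertical axes start at 0, symbols are replicates 1 to 3 and bars are mean and SD. In all 3 panels the treated libraries lie outside the range of the vehicle libraries. The receptor ratio and the decoy share restate the changes of the single receptor genes.

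FAS, the receptor of FAS ligand, was at 22.5, 24.7 and 22.3 CPM in vehicle and 24.6, 23.8 and 28.2 CPM in treated libraries. The groups overlapped, and the log2 fold change of 0.14 ± 0.078 did not pass the test (edgeR adjusted p = 0.131). On the TPM scale the treated libraries, at 16.2 to 23.8, were all above the vehicle libraries, at 14.7 to 15.2. There FAS was called (0.36 on log2(TPM + 1), limma adjusted p = 0.0283), as it was with library size scaling (0.22, edgeR adjusted p = 0.0296). Over all tested genes the median log2(TPM + 1) change was 0.20, and relative to it the change of FAS was 0.17. ACTA2, the smooth muscle actin gene, shares 380 of the 4253 exonic bases of FAS on the other strand and averaged 37.2 and 37.3 TPM. Reads in that stretch cannot be assigned, and the counts of FAS were fractional in all 6 libraries.

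FADD, the adaptor of both receptor types, was at 18.9, 20.9 and 22.9 CPM in vehicle and 25.1, 27.3 and 21.4 CPM in treated libraries. Frankincense replicate 3 lay inside the vehicle range. The log2 fold change was 0.23 ± 0.094 (edgeR adjusted p = 0.0466). The call was lost with upper-quartile scaling (adjusted p = 0.0942), with a 5 CPM minimum (0.0713), in DESeq2 (0.0630), in limma-voom (0.0533), and when vehicle replicate 1 or 2 or frankincense replicate 1 or 2 was left out (0.117 to 0.192), while without frankincense replicate 3 the change was 0.33. AP000879.1 covers 1011 of its 1841 exonic bases on the other strand, at a mean of 0.47 TPM in vehicle and 0.94 TPM in treated libraries.

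The initiator caspases differed from each other in what the test showed. CASP8 was at 40.0, 41.0 and 42.0 CPM in vehicle and 40.3, 39.2 and 40.2 CPM in treated libraries, with overlapping groups and a log2 fold change of -0.039 ± 0.056 (edgeR adjusted p = 0.565). The sign turned with library size scaling (0.037) and on the log2(TPM + 1) scale (0.17). In TPM all treated libraries, at 26.2 to 31.0, were above all vehicle libraries, at 23.7 to 25.6. CASP10, its close relative and neighbour in the genome, was at 27.3, 27.9 and 29.9 CPM in vehicle and 16.8, 17.6 and 17.6 CPM in treated libraries. The groups were apart, and the log2 fold change was -0.71 ± 0.068 (edgeR adjusted p = 4.6e-07). Whether the caspases differ in their response was not tested directly.

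CFLAR, the inhibitor, was at 93.1, 88.0 and 87.2 CPM in vehicle and 60.1, 57.8 and 68.8 CPM in treated libraries. No treated library reached the vehicle range in CPM, and the log2 fold change was -0.52 ± 0.064 (edgeR adjusted p = 6.0e-06). In TPM, however, the values were 28.3, 26.3 and 27.1 against 23.1, 22.5 and 26.6, where frankincense replicate 3 lay inside the vehicle range. The TPM-based change was -0.17 (limma adjusted p = 0.0921), or -0.37 relative to the median of all tested genes on that scale. With TPM rescaled without mitochondrial genes it was -0.35 and passed (adjusted p = 0.0046). CFLAR-AS1, an antisense gene that shares 777 of the 22529 exonic bases of CFLAR, was also lower (-1.26 ± 0.38, edgeR adjusted p = 0.0098). IMPDH1P10 on the other strand shares 1488 bases, and AC007283.1 on the same strand shares 445. Neither of these was called (edgeR adjusted p of 0.819 and 0.28). Reads in the shared stretches cannot be told apart, and the counts of CFLAR were fractional in all 6 libraries.

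The inhibitor was set against the initiator within each library. The TPM ratio of CFLAR to CASP8 was 1.19, 1.03 and 1.07 in vehicle libraries and 0.882, 0.836 and 0.858 in treated libraries. All vehicle libraries held more CFLAR than CASP8 per length and all treated libraries less. How this shift divides between the genes depends on the scale. On log2(TPM + 1) the changes were -0.17 for CFLAR and 0.17 for CASP8. Neither was called on that scale (limma adjusted p of 0.0921 and 0.107). Relative to the median of all tested genes there, they were -0.37 and -0.030. The count-based changes were -0.52 for CFLAR and -0.039 for CASP8. With expected counts in place of TPM the mean log2 ratio differed by -0.49. The mean log2 ratio differed by -0.35 (exact permutation test, two-sided, p = 0.1, the smallest possible; adjusted over the 2 ratios tested it remained 0.1).

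**Figure D3:**
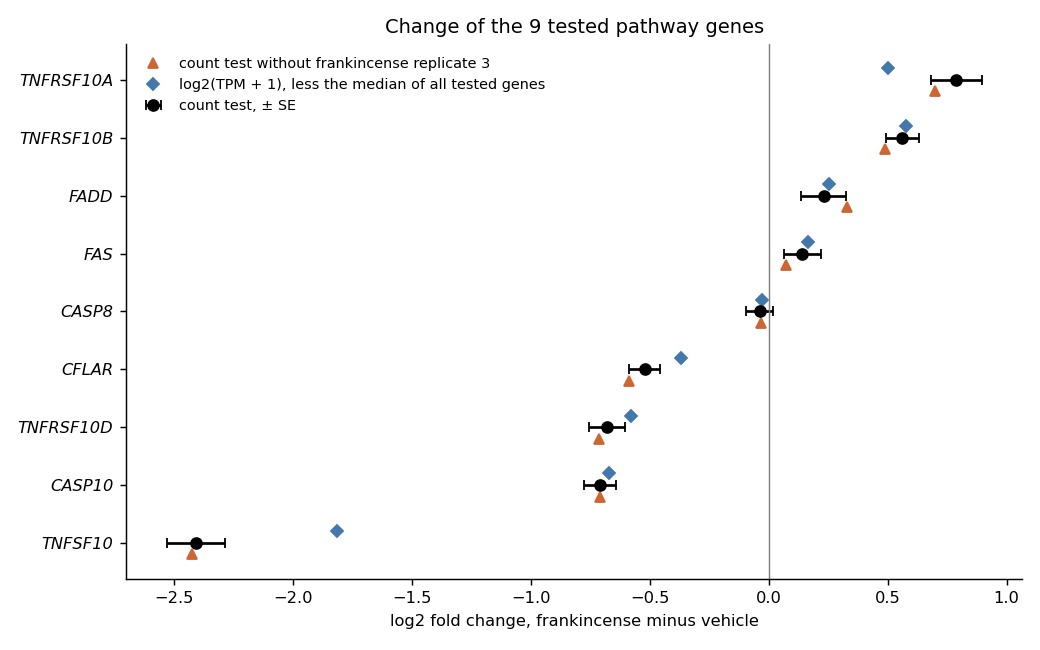
Log2 fold change of the 9 tested members, frankincense minus vehicle (horizontal axis): black points with SE from the count test, orange triangles from the same test without frankincense replicate 3, and blue diamonds from log2(TPM + 1) less the median of all tested genes. TNFSF10 lies at -2.41, TNFRSF10A at 0.79 and CASP8 at -0.039, and the direction of each member was the same in all 3 readings as plotted. The readings share libraries. For CASP8 the direction rests on the subtraction, since its log2(TPM + 1) change was 0.17 before the median of 0.20 was taken off.

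The order of levels per length changed between the groups. In vehicle libraries TNFRSF10B (61.5 TPM) was followed by CFLAR (27.2), CASP8 (24.9), FADD (16.2), FAS (14.9), TNFSF10 (8.78), TNFRSF10D (8.26), CASP10 (7.95), TNFRSF10A (4.16) and TNFRSF10C (0.16). FADD and FAS overlapped in their library values, as did TNFSF10, TNFRSF10D and CASP10 along that order. In treated libraries TNFRSF10B (106 TPM) was followed by CASP8 (28.1), CFLAR (24.1), FADD (22.5), FAS (19.6), TNFRSF10A (7.41), TNFRSF10D (6.10), CASP10 (5.46), TNFSF10 (2.19) and TNFRSF10C (0.090). There CASP8, CFLAR, FADD and FAS overlapped each with the next, and so did TNFRSF10A, TNFRSF10D and CASP10.

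RSEM also reports a transcript length for each gene and library, averaged over transcripts by abundance, which moves when long or short transcripts gain share. Limma on log2 length called 0 of the 7 tested members whose length varied (0.903% of all genes tested), with 0 at an unadjusted p under 0.05. Over all genes 123 were called, and 1855 of 13624 had an unadjusted p under 0.05. CFLAR came nearest, with 4111, 4081 and 4049 bases in vehicle libraries and 3702, 3697 and 4044 in treated libraries (log2 change of -0.098 ± 0.041, unadjusted p = 0.0603, adjusted p = 0.394). Frankincense replicate 3 lay just below the vehicle libraries, and the other treated libraries were listed shorter. TNFRSF10A was listed at 1963 bases in vehicle replicate 1 and at 2462 to 2690 in the other libraries, and TNFSF10 at 1214 bases in frankincense replicate 1 and at 1618 to 1731 elsewhere. A shorter listed length raises the TPM at a given count, and these TPM values carry that dependence. TNFRSF10D and FADD have a single listed length, 3535 and 1708 bases.

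**Figure D4:**
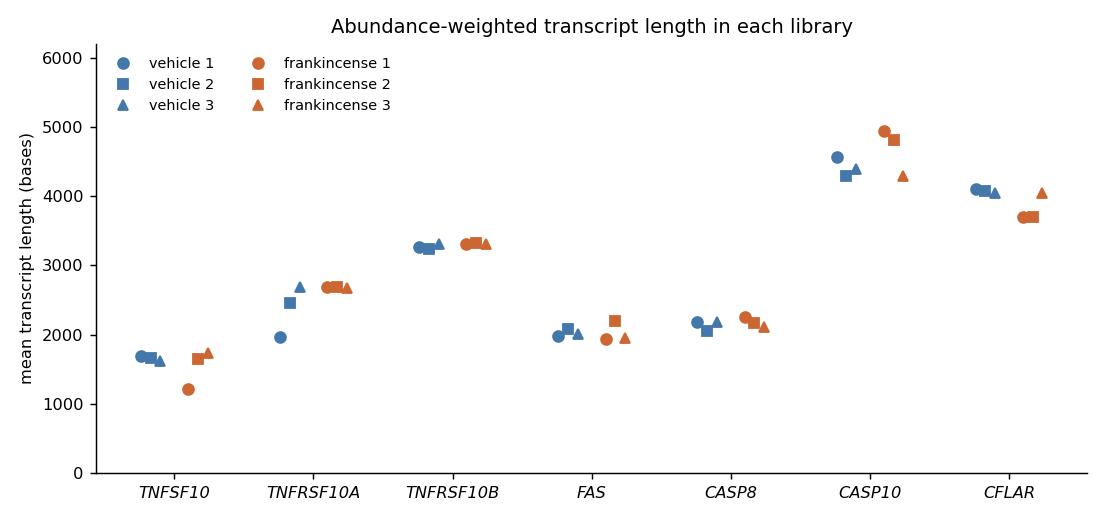
Abundance-weighted transcript length in bases (vertical axis from 0) of the 7 tested members whose length varied, in vehicle (blue) and frankincense (orange) libraries, with symbols for replicates 1 to 3. CFLAR is at 3702 and 3697 bases in frankincense replicates 1 and 2 and at 4044 in frankincense replicate 3, and TNFRSF10A is at 1963 in vehicle replicate 1.

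Around the members, 75 other genes of the pathway were read in 6 lists by role, 66 of them tested. Of these 25 were called higher and 23 lower, against 31.9% and 31.0% of all tested genes. The same shares are the background for the calls in each list below. The median log2 change of the 66 was 0.064, against -0.0016 over all tested genes. On the log2(TPM + 1) scale 38 were higher and 12 lower, where the whole table also shifted towards higher calls (74.8% of calls, against 50.7% in the count test).

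In the list of other ligands and receptors 1 of 6 tested genes was called higher and 3 lower. TNFRSF11B, which encodes the soluble TRAIL-binding decoy osteoprotegerin, fell from 158.8, 151.7 and 161.2 TPM to 28.2, 29.6 and 38.7 TPM, 5.69-fold in the count test (log2 fold change of -2.51 ± 0.071, edgeR adjusted p = 3.3e-12). Its vehicle level was above that of TNFRSF10B and its treated level below it. TNFRSF1A, the main TNF receptor, fell from 133 ± 2.62 to 84.5 ± 9.22 TPM (-0.92 ± 0.051). NGFR, a neurotrophin receptor with a death domain, was at 0.0452, 0.0747 and 0.156 CPM in vehicle libraries, around the floor of 3 counts, and at 1.29, 1.33 and 1.56 CPM in treated libraries. It is the gene called higher in this list, but it passed the filter only through the treated libraries, and the size of its change depends on the value added to low levels (0.63 on log2(TPM + 1), 2.34 on log2(TPM + 0.1)). FASLG, the ligand of FAS, had 0 counts in all 6 libraries, which allows up to 0.109 to 0.133 CPM in a library, and TNF had 2 counts in vehicle and 1 in treated libraries.

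In the list of other adaptors and partners 2 of 12 tested genes were called higher and 5 lower. FAF1, a FAS-binding ubiquitin-domain protein, rose by 0.50 ± 0.050 and DEDD2, a death effector domain protein, by 0.59 ± 0.067. PIDD1, a death domain protein of the caspase-2 complex, fell by 0.65 ± 0.059 and DAXX, a FAS-binding histone chaperone, by 0.42 ± 0.059. RIPK3, a kinase of necroptosis, had 0 counts in all libraries.

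Of 16 ubiquitin enzymes and other inhibitors, 10 were called higher and 4 lower, against 31.9% and 31.0% of all tested genes. The median log2 change of the 16 was 0.21. PEA15, a death effector domain protein that can bind FADD, rose from 118 ± 4.60 to 271 ± 10.1 TPM (0.91 ± 0.063), and XIAP, a direct caspase inhibitor, by 0.70 ± 0.055. TNFAIP3, the ubiquitin-editing enzyme A20, fell by 1.01 ± 0.061, and CUL3, a ubiquitin ligase scaffold that acts on caspase-8, by 0.52 ± 0.051. BIRC3, the inhibitor of apoptosis cIAP2, fell by 0.46 ± 0.084 (edgeR adjusted p = 0.00025). Inhibitors of the pathway were thus found in both directions, with CFLAR and BIRC3 lower and PEA15 and XIAP higher.

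Of 13 downstream effectors, 6 were called higher and 3 lower. CYCS, cytochrome c, rose from 80.8 ± 2.10 to 188 ± 5.58 TPM (1.11 ± 0.053), and DFFA, the inhibitor of the caspase-activated nuclease, by 0.69 ± 0.051. APAF1, the scaffold of the apoptosome, fell by 0.76 ± 0.069, and BID, which carries the signal of caspase-8 to mitochondria, by 0.49 ± 0.066.

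Of 14 transcription factors known to act on member genes, 5 were called higher and 5 lower. DDIT3, which encodes CHOP, was at 49.4, 54.0 and 47.3 TPM in vehicle and 339.4, 352.3 and 329.0 TPM in treated libraries, a log2 fold change of 2.50 ± 0.076. ATF3, another stress factor, rose by 2.49 ± 0.091. SP1, which binds GC boxes, fell by 0.61 ± 0.051 and FOXO1 by 0.60 ± 0.13, a call lost on both TPM scales (limma adjusted p of 0.152 and 0.184). IRF1, an interferon-induced factor, was at 0.061 ± 0.062 and did not pass (edgeR adjusted p = 0.412). It is given because of the promoter letters above and was chosen after its values were seen.

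Among 8 genes for receptor processing, 5 were tested, with 1 higher and 3 lower. CAV1, the caveolar coat protein in whose membrane domains death receptors can gather, fell from 151 ± 10.1 to 78.3 ± 8.38 TPM (-1.22 ± 0.057). EZR, the membrane linker ezrin, fell by 0.15 ± 0.048, but on log2(TPM + 1) it stood at 0.097. Its call was also lost with library size scaling, with no filter, on TPM rescaled without mitochondrial genes and without vehicle replicate 2 (adjusted p of 0.0541 to 0.267). MARCHF8, a ubiquitin ligase of TNFRSF10A, rose by 0.18 ± 0.066, a call lost in DESeq2, with upper-quartile scaling, on TPM rescaled without mitochondrial genes and without vehicle replicate 1 or 2 or frankincense replicate 2 (adjusted p of 0.0576 to 0.0941).

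**Figure D5:**
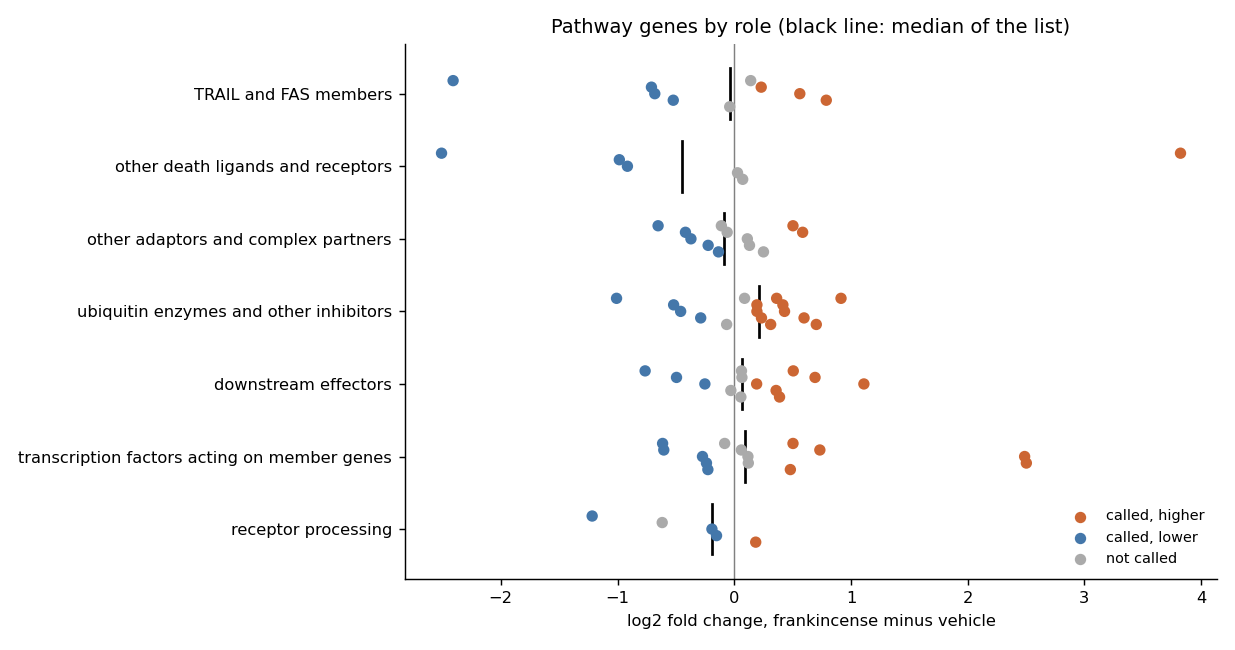
Log2 fold change, frankincense minus vehicle (horizontal axis), of each tested gene in the members and the 6 lists of pathway genes (vertical axis, points spread for clarity); orange and blue points were called higher and lower, grey points were not called, and black lines are list medians. TNFSF10 at -2.41 and TNFRSF11B at -2.51 lie far to the left, and DDIT3 and ATF3 near 2.5 to the right.

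Genes with the most similar profile over the 6 libraries were sought by the Euclidean distance between centred log2 CPM values, among 13227 tested protein-coding genes. Nearest to TNFRSF10B were EPB41, a membrane skeleton protein (distance 0.044), GPNMB, a transmembrane glycoprotein (0.052), and TTC27 (0.053), with log2 fold changes of 0.54, 0.57 and 0.58. Nearest to TNFSF10 were ST3GAL5, a ganglioside sialyltransferase (0.19), H2BC21, a histone H2B gene (0.25), and GAS1, a growth arrest gene (0.26), with log2 fold changes of -2.41, -2.25 and -2.22. TNFSF10 has fewer counts than TNFRSF10B, and its nearest genes lay farther away. Why they lay farther away was not tested.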

How the data were processed

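The submitters' processing notes name the aligner STAR, the counter RSEM 1.3.1 and the build GRCh38, and give no annotation. The deposited tables hold, per the file headers, an expected count for each gene. They also hold TPM and FPKM, which the authors' RSEM run scaled to length and library, and transcript lengths in bases; the deposited FPKM was not analysed. RSEM divides reads among similar or overlapping genes, and the labels do not state that strand was kept. Symbols came from the gene name table (60419 of 60616 identifiers), positions from GENCODE 29 and promoters from RefSeq (GRCh38.p14).

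After rounding, the counts went into edgeR 4.0.16 under R 4.3.3 (filterByExpr, TMM, robust quasi-likelihood with the legacy fit, two-sided, Benjamini-Hochberg over 16719 genes). CPM uses TMM-scaled library sizes over these genes. The SE is the absolute log2 fold change divided by the square root of F. Lengths were tested with limma 3.58.1. Scripts were tested on simulated data. Alternatives were other scalings and filters, DESeq2 1.42.0, limma-voom, limma on log2(TPM + 1) and log2(TPM + 0.1), each library left out, and a replicate block.

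The members and lists were chosen with earlier results of these data known. Named genes are all members, up to 2 called genes per list and direction with the smallest adjusted p, the genes FASLG, TNFRSF11B, DDIT3, BID and BIRC3 whatever their result, and the 3 nearest profiles of TNFRSF10B and TNFSF10. RIPK3, TNF and overlapping genes were added after their values were seen. Some genes that this rule names are not reported here.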

Additional observations from a re-analysis of the deposited data

How the results depend on the processing

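TNFSF10, TNFRSF10A, TNFRSF10B, TNFRSF10D and CASP10 kept their direction and call under all 18 alternatives, with log2 fold changes of -2.48 to -1.62, 0.56 to 0.88, 0.49 to 0.78, -0.73 to -0.38 and -0.75 to -0.48. CFLAR kept its direction in 18 and its call in 16, and lost the call on log2(TPM + 1) and log2(TPM + 0.1). FADD was called in 10 of 18 and FAS in 3 of 18. CASP8 was called in 0 of 18 and turned sign to 0.037 with library size scaling and to 0.17 on both TPM scales; EZR turned to 0.097 and 0.099 on these. The cause was not tested. With log2(TPM + 1) and log2(TPM + 0.1), 2491 and 2490 genes of the whole table were lower, against 5177, and other pathway genes were 38 higher and 12 lower on both; the median of all tested genes moved to 0.20 and 0.24 there. The length test rested on all 6 libraries: 123 genes were called, 0 to 70 without 1 library (0 without vehicle replicate 1 or frankincense replicate 1, 70 without frankincense replicate 3), which leaves fewer samples, and 0 with the replicate block.

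The labels number the replicates 1 to 3 in each group, but same-numbered libraries shared little: the correlations of their deviations from the group means were 0.050, 0.10 and 0.035, although each library correlated best with its own number, a hint from the data and not the design. With the replicate block 10591 genes were called, against 10509, and 7 members and 48 other pathway genes, as without it. For the 2 within-library ratios the block leaves the mean difference as it is by arithmetic (1.22 and -0.35), and the paired exact permutation p (sign changes, two-sided) was 0.25 for each, the smallest that 3 pairs allow, against 0.1 without the block. At this depth TNFRSF10C could not be compared.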
